A study of Mus musculus with 2 samples.

Results

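Expression of 10 genes of the interferon-gamma response was followed in F4/80-enriched spleen cells of 1 control and 1 SCD mouse: the GTPases Gbp2, Gbp3, Gbp5, Gbp7, Irgm1 and Igtp, the transcription factor Irf1, and the CXCR3 chemokines Cxcl9, Cxcl10 and Cxcl11. They were chosen by gene symbol, and all 10 were found among the 26124 genes of the count matrices. SCD mice are the Berkeley model of sickle cell disease. The SCD mouse was Hba−/− and Hbb−/− and carried a human globin transgene with the sickle β-globin, and the control mouse, which the study calls wild-type, was Hba−/− and Hbb+/− and hemizygous for that transgene. Both mice were thus without mouse α-globin genes and with human globin, on a mixed genetic background. They were 12 to 16 weeks old and untreated. Their spleens were depleted of mature erythrocytes and enriched for macrophages with magnetic beads against F4/80, a surface protein of mouse macrophages, and each cell suspension was sequenced as 1 droplet scRNA-seq library with 3′ chemistry. Since each condition had 1 mouse, no test was made. All intervals below are 95% exact intervals for counting error in these libraries and say nothing about the spread between mice.

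Interferon-gamma, made mainly by T and NK cells, binds the receptor chains Ifngr1 and Ifngr2. The kinases Jak1 and Jak2 then pass the signal on, genes with DNA motifs called GAS are switched on, Irf1 among them, and Irf1 in turn binds motifs called ISRE. In macrophages the pathway is known for arming the cell against intracellular microbes: guanylate-binding proteins (the Gbp genes) and immunity-related GTPases (Irgm1, Igtp) act on the membranes around such microbes. Cxcl9, Cxcl10 and Cxcl11 are secreted ligands that draw activated T and NK cells carrying the receptor Cxcr3.

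The letters of these motifs were searched in the 250 bases before the annotated start sites of the 10 genes, since the genes are grouped here by the signal they are known to answer. The windows came from RefSeq on build GRCm38.p6, and 9 of the 10 symbols matched, all but Cxcl11. GAS was searched as TTCNNNGAA and the core of ISRE as GAAANNGAA, on both strands. In 32851 windows of the same length from the whole genome, GAS was found in 7.02%, the ISRE core in 7.13%, and both in 0.752%. Each of the 9 genes held a match to at least 1 of them, and Gbp5, Gbp7 and Igtp held both. Gbp3 and Irf1 have 2 annotated start sites, and neither second window held a match. A match is a run of letters and does not show that a factor was bound. The windows of 5 genes are printed, 5′ to 3′ on the strand of the gene, with matches in capitals. Irf1 is shown as an early target of the pathway. Gbp2 is the GTPase among the 10 genes with the widest difference between the libraries over all cells, and Gbp7 the one without a difference. Igtp is shown as an immunity-related GTPase, and Cxcl9 as the chemokine with the most UMIs.
Irf1 (chr11:53769764-53770013, plus strand): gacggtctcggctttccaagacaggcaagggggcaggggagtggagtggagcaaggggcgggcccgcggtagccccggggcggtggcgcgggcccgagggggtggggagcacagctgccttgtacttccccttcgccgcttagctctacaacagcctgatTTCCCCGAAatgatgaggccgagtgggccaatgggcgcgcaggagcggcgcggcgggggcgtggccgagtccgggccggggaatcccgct
Gbp2 (chr3:142620413-142620662, plus strand): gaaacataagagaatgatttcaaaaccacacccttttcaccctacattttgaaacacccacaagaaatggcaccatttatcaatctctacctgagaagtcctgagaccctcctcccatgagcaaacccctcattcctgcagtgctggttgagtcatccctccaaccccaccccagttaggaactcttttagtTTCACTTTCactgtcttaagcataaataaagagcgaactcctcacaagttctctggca
Gbp7 (chr3:142530086-142530335, plus strand): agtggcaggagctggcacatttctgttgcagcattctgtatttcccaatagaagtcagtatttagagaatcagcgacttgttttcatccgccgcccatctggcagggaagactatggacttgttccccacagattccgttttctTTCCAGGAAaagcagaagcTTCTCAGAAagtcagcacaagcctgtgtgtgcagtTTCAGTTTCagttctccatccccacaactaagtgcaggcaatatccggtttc
Igtp (chr11:58199306-58199555, plus strand): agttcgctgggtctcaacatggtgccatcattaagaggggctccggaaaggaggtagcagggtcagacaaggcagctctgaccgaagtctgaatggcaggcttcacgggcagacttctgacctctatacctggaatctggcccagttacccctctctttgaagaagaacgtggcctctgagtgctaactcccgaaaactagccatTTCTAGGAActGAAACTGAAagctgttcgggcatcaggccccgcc
Cxcl9 (chr5:92328080-92328329, minus strand): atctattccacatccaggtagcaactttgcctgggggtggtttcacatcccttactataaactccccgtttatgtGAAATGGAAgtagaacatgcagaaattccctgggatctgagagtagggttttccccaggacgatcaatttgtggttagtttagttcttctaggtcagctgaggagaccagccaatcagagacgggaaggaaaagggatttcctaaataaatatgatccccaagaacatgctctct
The window of Irf1 held a single GAS, 90 bases before the start. That of Gbp2 held an ISRE core at 58 bases, and that of Cxcl9 held one at 175 bases. Gbp7 had GAS matches at 106 and 87 bases and an ISRE core at 52 bases, so its window held more of the searched letters than the window of Gbp2. In Igtp the GAS at 45 bases and the ISRE core at 34 bases lay side by side. The Gbp genes lie together on chromosome 3, the chemokine genes together on chromosome 5, and Irgm1, Igtp and Irf1 on chromosome 11.

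The matrices held 145953464 UMIs, the molecules tagged at reverse transcription, in 24144 barcodes of the wild-type-labelled library and 73986356 in 15442 barcodes of the SCD-labelled library. After filtering, 19418 and 12279 cells were kept, with medians of 4115.5 and 4571 UMIs. The libraries shared 107 barcodes, of which 65 were kept. The β-globin gene Hbb-bs, deleted in the SCD genotype, was at 150 CPM (UMIs per 1000000 UMIs of the same cells) in erythroid-like cells of the wild-type-labelled library and at 46595 CPM in those of the SCD-labelled library. This goes against the labels, so the samples are named after their labels as the wild-type-labelled and the SCD-labelled library, and every direction given here is a direction between these labels. Adgre1, which encodes F4/80, was at 685 and 753 CPM in cells with markers of red pulp macrophages and at 95.4 and 79.4 CPM in the main B lymphocyte-like cluster, so many kept cells were not macrophages.

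Over all kept cells, 9 of the 10 genes were at a higher level in the SCD-labelled library, and 7 of them, Gbp2, Gbp3, Gbp5, Irf1, Cxcl9, Cxcl10 and Cxcl11, were at least 2-fold higher. None was 2-fold lower. Cxcl11 passed the minimum of 100 UMIs through the SCD-labelled library alone, and with at least 100 UMIs asked of each library 6 of 9 genes were at least 2-fold higher, beside 10.6% of all genes. Of the 13015 genes with at least 100 UMIs over both libraries, 12% were at least 2-fold higher and 9.78% at least 2-fold lower in the SCD-labelled library. The median log2 ratio of the 10 genes (SCD-labelled library over wild-type-labelled library, of CPM) was 1.29, beside 0.18 over all genes tested. The libraries held cell types in different shares, so fewer cells of a type and less RNA per cell cannot be told apart in these sums, and the genes were also followed within clusters of cells. RPM-like cells, which had markers of red pulp macrophages, made up 4746 and 1618 of the kept cells in the wild-type-labelled and SCD-labelled libraries (24.4% and 13.2%). EBI-like cells, which had macrophage and erythroid markers, made up 5871 and 308 (30.2% and 2.51%). Both classes took a smaller share of the SCD-labelled library, whose label Hbb-bs goes against. They leave out clusters that met a marker rule but were led by other markers. Of these, clusters led by Hbb-bs and Hbb-bt (12 and 616 cells) and by Igha and Jchain (471 and 306) met the EBI-like rule. A cluster led by Mmp14 and Pf4 (693 and 218) met the RPM-like rule. Clusters were built without the 10 genes and the interferon genes.

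**Figure D1:**
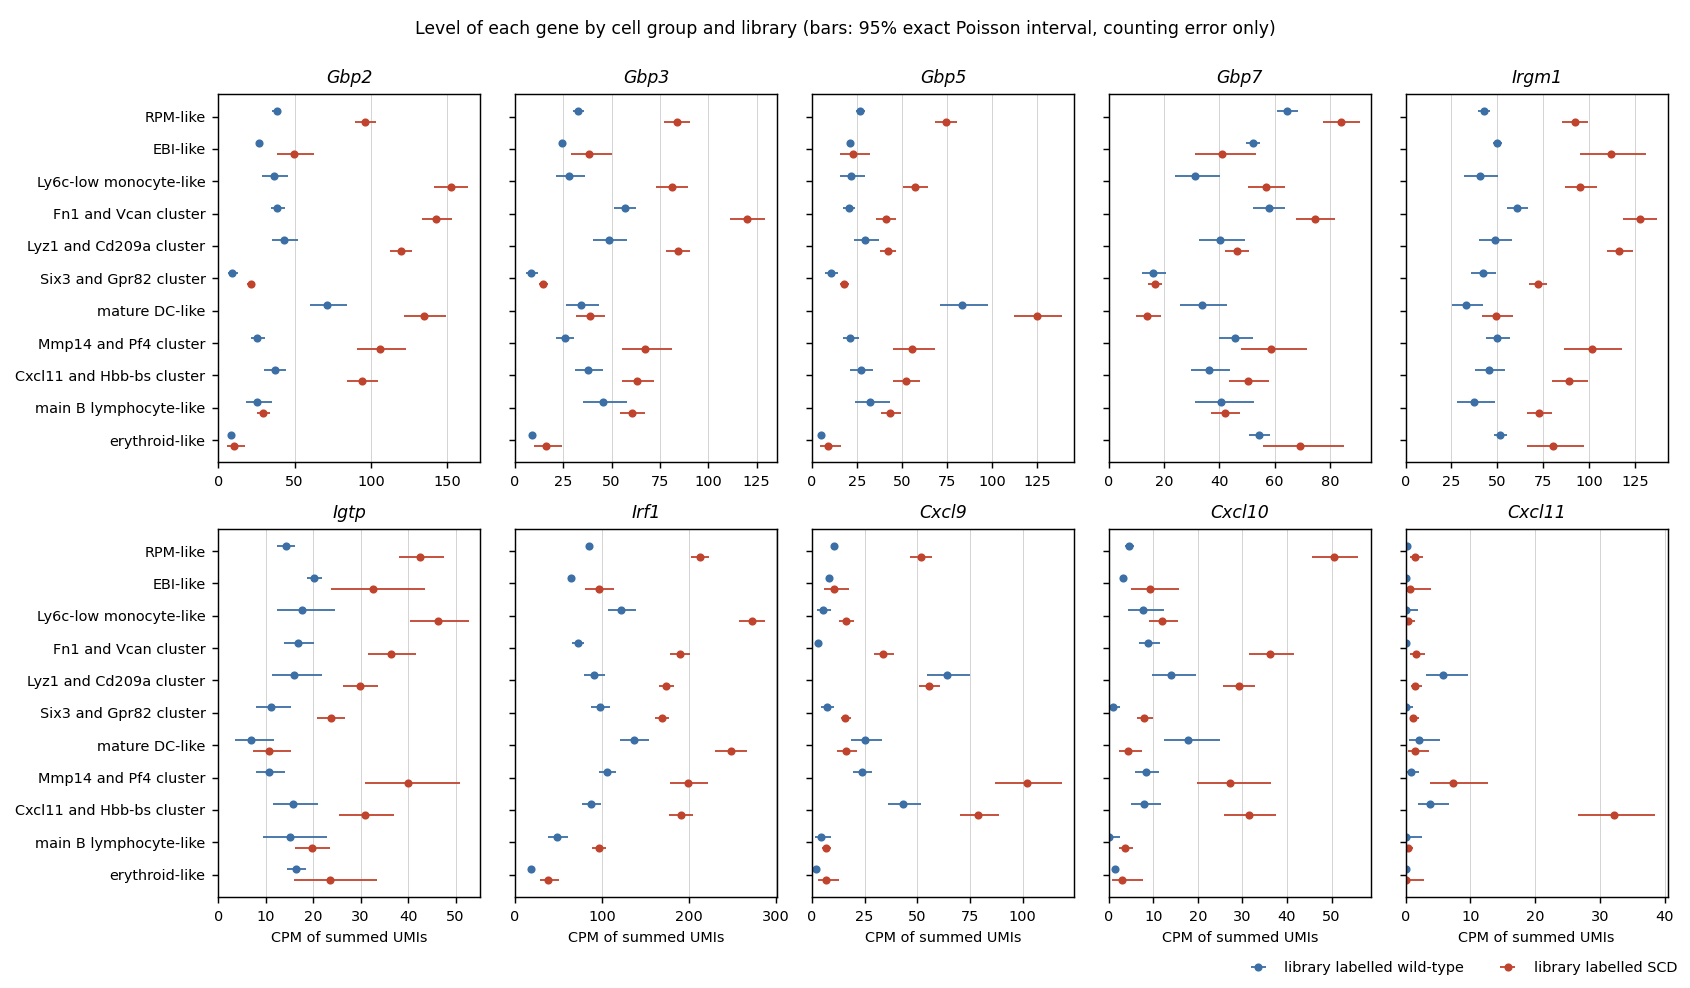
Level of each of the 10 genes in 11 groups of cells, as CPM of summed UMIs on the horizontal axis, for the wild-type-labelled library (blue) and the SCD-labelled library (red). Points are the level of 1 library and bars its 95% exact Poisson interval; RPM-like cells held Gbp2 at 38.2 and 96.2 CPM and Gbp7 at 64.6 and 83.9 CPM.

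Irf1, the transcription factor that acts on many interferon-gamma targets, had the most UMIs of the 10 genes, 7317 and 11438. Its level over all kept cells was 68.2 (66.6 to 69.8) CPM in the wild-type-labelled library and 176 (173 to 180) CPM in the SCD-labelled library, a log2 ratio of 1.37 (1.33 to 1.41). The difference was present across cell types. RPM-like cells had 85.5 and 213 CPM of Irf1 (log2 ratio 1.32, 1.21 to 1.42). Ly6c-low monocyte-like cells, with markers of patrolling monocytes, had 122 and 273 CPM (1.16, 0.96 to 1.36), the highest level in the SCD-labelled library among the 18 clusters with at least 50 cells in each library. The cluster led by Fn1 and Vcan, which had markers of Ly6c-high monocytes, had 72.2 and 190 CPM (1.40, 1.24 to 1.55). In each of these groups the interval of the SCD-labelled library lay above that of the wild-type-labelled library. The main B lymphocyte-like cluster was also higher, at 48.4 and 96.0 CPM, as were erythroid-like cells at 18.3 and 38.0 CPM, the cells with the least Irf1. Over these 18 clusters the log2 ratio of Irf1 ran from 0.64 to 1.40 with a median of 0.94.

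Gbp2 had the largest log2 ratio over all kept cells of the GTPases among the genes followed. It was at 27.4 (26.4 to 28.4) CPM in the wild-type-labelled library and at 82.0 (79.8 to 84.2) CPM in the SCD-labelled library, a log2 ratio of 1.58 (1.52 to 1.65). Over the 18 clusters its log2 ratio was largest in Ly6c-low monocyte-like cells, the cluster led by Mmp14 and Pf4 and the cluster led by Fn1 and Vcan. Ly6c-low monocyte-like cells had 36.4 (28.5 to 45.9) and 152 (141 to 164) CPM, a log2 ratio of 2.06 (1.71 to 2.43), and the cluster led by Fn1 and Vcan had 38.8 and 143 CPM (1.88, 1.68 to 2.09). The cluster led by Mmp14 and Pf4 had 25.5 and 106 CPM (2.06, 1.72 to 2.40). RPM-like cells had 38.2 and 96.2 CPM (1.33, 1.18 to 1.49). Erythroid-like cells, at 8.58 and 10.6 CPM (0.31, −0.60 to 1.11), and the main B lymphocyte-like cluster, at 25.6 and 29.3 CPM (0.20, −0.32 to 0.75), had intervals that held 0. With each cell thinned to 1000 UMIs, 3.89% (3.32 to 4.54%) of the RPM-like cells in the wild-type-labelled library and 8.15% (6.80 to 9.67%) of those in the SCD-labelled library had a Gbp2 UMI, beside 0.708% and 0.633% of the erythroid-like cells. Without thinning the median depth of the RPM-like cells was 2122.5 and 4105.5 UMIs, and that of the erythroid-like cells 7178 and 6849.

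Gbp3 and Gbp5 were close to each other in their ratios and differed in the cells that carried them. Gbp3 was at 26.9 and 62.0 CPM over all kept cells (log2 ratio 1.21, 1.14 to 1.28), and Gbp5, which is known to promote inflammasome assembly, at 20.3 and 46.7 CPM (1.20, 1.12 to 1.28). Gbp3 was highest in the cluster led by Fn1 and Vcan in both libraries, at 56.8 and 120 CPM. Gbp5 was highest in mature DC-like cells in both, at 83.5 and 125 CPM (0.58, 0.31 to 0.86), where Gbp3 was at 34.1 and 38.6 CPM (0.18, −0.28 to 0.65). In RPM-like cells Gbp3 was at 32.7 and 83.6 CPM (1.35, 1.19 to 1.52) and Gbp5 at 26.7 and 74.2 CPM (1.48, 1.29 to 1.66).

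Gbp7 was the exception among the GTPases followed. Its level over all kept cells was 49.7 (48.4 to 51.1) CPM in the wild-type-labelled library and 47.8 (46.1 to 49.5) CPM in the SCD-labelled library, a log2 ratio of −0.06 with an interval that held 0 (−0.12 to 0.01). Over 17 clusters with at least 10 Gbp7 UMIs in each library, the median log2 ratio was 0.04. RPM-like cells had 64.6 and 83.9 CPM (0.38, 0.23 to 0.52), and Ly6c-low monocyte-like cells 31.4 and 56.7 CPM (0.85, 0.45 to 1.28). Mature DC-like cells had 33.6 (25.9 to 42.9) and 14 (9.92 to 19.1) CPM, a log2 ratio of −1.27 (−1.88 to −0.67), on 64 and 39 UMIs. Gbp7 was thus higher in RPM-like cells and lower in mature DC-like cells of the SCD-labelled library. Erythroid-like cells, which had little of the other Gbp genes, held Gbp7 at 54.5 and 69.1 CPM. Gbp genes are near-identical in places, and reads that match more than 1 copy are dropped in this kind of counting, so the levels of single Gbp genes are uncertain.

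The GTPases were also measured in clusters that could not be named. The cluster led by Lyz1 and Cd209a, with 350 and 1193 cells, had Gbp2 at 43.2 and 120 CPM (1.47, 1.18 to 1.77) and Gbp3 at 48.6 and 84.3 CPM (0.79, 0.51 to 1.09). The cluster led by Six3 and Gpr82, with 967 and 2298 cells, had Gbp2 at 9.10 and 21.2 CPM (1.22, 0.68 to 1.81) and Gbp5 at 10.6 and 18.0 CPM (0.77, 0.25 to 1.32). Mature DC-like cells held Gbp2 at 71.4 and 135 CPM, above that cluster in both libraries. A cluster led by Hbb-bs and Hbb-bt with 12 and 616 cells belonged almost wholly to the SCD-labelled library and held Gbp2 at 78.0 CPM there. It met the marker rule for EBI-like cells but was led by other markers, so the EBI-like values given next leave it out. In that library it held 206 Gbp2 and 183 Gbp5 UMIs, beside 70 and 32 in EBI-like cells. EBI-like cells had Gbp2 at 26.9 and 49.6 CPM (0.88, 0.51 to 1.24) and Gbp5 at 21.0 and 22.7 CPM (0.11, −0.45 to 0.63).

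Irgm1 and Igtp belong to the regulatory immunity-related GTPases, which keep the effector GTPases of that family in check on the cell's own membranes. Irgm1 was at 47.4 (46.1 to 48.7) and 89.4 (87.1 to 91.7) CPM over all kept cells, a log2 ratio of 0.92 (0.86 to 0.97). Igtp was at 16.2 (15.5 to 17) and 30.5 (29.1 to 31.8) CPM, a log2 ratio of 0.91 (0.82 to 1.0). Both ratios were just under 2-fold. RPM-like cells were past it, with Irgm1 at 42.8 and 92.2 CPM (1.11, 0.96 to 1.26) and Igtp at 14.2 and 42.6 CPM (1.59, 1.34 to 1.83). Irgm1 was spread evenly over the cell types, at 30.2 to 60.9 CPM in the 18 clusters of the wild-type-labelled library and 49.4 to 127 CPM in those of the SCD-labelled library. Erythroid-like cells had 51.4 and 80.5 CPM, and the main B lymphocyte-like cluster 37.3 and 72.6 CPM (0.96, 0.55 to 1.40). EBI-like cells had 49.8 and 112 CPM of Irgm1. Its log2 ratio over 17 clusters ran from 0.10 to 1.26. The gene models of Igtp and Irgm2 overlap on the same strand, so the level of Igtp is uncertain.

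The 3 chemokines were carried by few cells. Cxcl9 had 1086 UMIs in 369 cells (1.90%) of the wild-type-labelled library and 2080 in 534 cells (4.35%) of the SCD-labelled library, which gave 10.1 (9.53 to 10.7) and 32.1 (30.7 to 33.5) CPM and a log2 ratio of 1.66 (1.56 to 1.77). Cxcl10 had 537 and 1343 UMIs in 278 and 483 cells, at 5.00 (4.59 to 5.45) and 20.7 (19.6 to 21.8) CPM, a log2 ratio of 2.05 (1.90 to 2.20). Cxcl11 had 42 and 203 UMIs in 16 and 64 cells, at 0.391 and 3.13 CPM (3.0, 2.51 to 3.51). A gene annotation of build GRCm38 lists Cxcl11 as a polymorphic pseudogene, a gene that makes a full protein in only some mouse strains.

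A small number of cells held a large part of these UMIs. In the wild-type-labelled library 22 cells had at least 10 Cxcl9 UMIs and held 45.5% of them, and in the SCD-labelled library 41 cells held 57.6%. Of the Cxcl9-positive cells 236 and 332 had a single UMI. The highest cell of the SCD-labelled library had 207 UMIs of Cxcl9, 56 of Cxcl10, 110 of Cxcl11 and 45 of Gbp2. That cell held 54.2% of all Cxcl11 UMIs of its library, and it lay in an unnamed cluster led by Cxcl11 and Hbb-bs. Leading genes were ranked on summed UMIs, and this cell held 110 of that cluster's 119 Cxcl11 UMIs in the SCD-labelled library. The cluster was at 2.44 CPM of Cxcl11 there without it. Without the highest cell of each library the log2 ratios were 1.65 for Cxcl9, 2.04 for Cxcl10 and 2.46 for Cxcl11, the last on 28 and 93 UMIs.

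**Figure D2:**
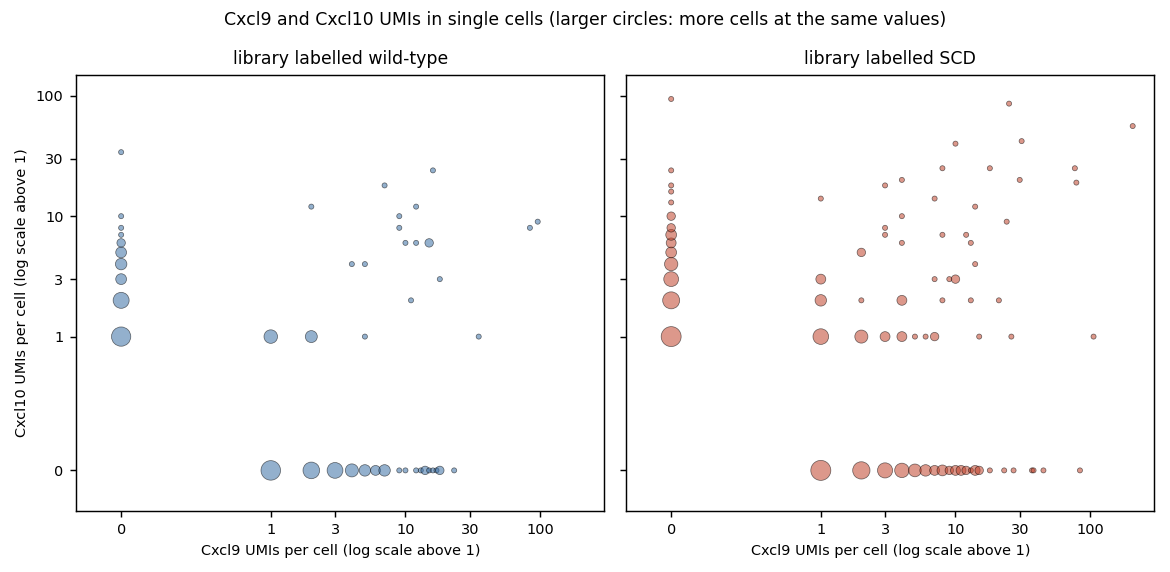
UMIs of Cxcl9 (horizontal) and Cxcl10 (vertical) in single cells with at least 1 UMI of either gene, on axes that are logarithmic above 1, for the wild-type-labelled library (left) and the SCD-labelled library (right). Larger circles stand for more cells at the same values; most cells lie on an axis with a UMI of 1 gene alone, and the highest cell had 207 Cxcl9 and 56 Cxcl10 UMIs.

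Cxcl9 and Cxcl10 were found together in more cells than the product of their shares. With cells thinned to 1000 UMIs, 11 cells of the wild-type-labelled library held both, against a product of 0.476 cells, and 24 cells of the SCD-labelled library, against 2.03. Most cells with a UMI of either held 1 of them: the highest Cxcl10 cell, with 94 UMIs, had 0 of Cxcl9. Gbp2 was found in 32.5% and 41.2% of the Cxcl9-positive cells at full depth, and in 11.3% and 21.4% of all kept cells. Cells of deeper sequencing have more of every gene, and at 1000 UMIs the shares were 14.2% and 21.0% of the Cxcl9-positive cells against 2.76% and 6.48% of all cells.

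RPM-like cells held 16.1% (14 to 18.4%) and 18.5% (16.9 to 20.2%) of all Cxcl9 UMIs, and had the highest Cxcl9 level of the named classes when the levels of the libraries were averaged. In the wild-type-labelled library alone mature DC-like cells had a higher level, and EBI-like cells held more of the UMIs, 25% there and 0.721% in the SCD-labelled library. In the SCD-labelled library the unnamed cluster led by Lyz1 and Cd209a held more, 499 of the 2080 UMIs beside 385 in RPM-like cells. Without the highest cells these were 415 and 347. The cluster led by Hbb-bs and Hbb-bt, which met the EBI-like rule, held 80 there. In RPM-like cells Cxcl9 was at 10.4 (8.88 to 12.0) and 51.6 (46.6 to 57.0) CPM, a log2 ratio of 2.32 (2.06 to 2.58). Cxcl10 in RPM-like cells was at 4.61 (3.65 to 5.76) and 50.6 (45.7 to 56.0) CPM, a log2 ratio of 3.46 (3.1 to 3.83). At least 1 UMI was found in 78 and 116 RPM-like cells for Cxcl9 and in 50 and 84 for Cxcl10. Such UMIs can also come from free RNA: 23 of 1841 and 6 of 159 erythroid-like cells had a Cxcl9 UMI, as had 4 of 540 and 27 of 1725 cells of the main B lymphocyte-like cluster. Of the 378 Cxcl10 UMIs of RPM-like cells in the SCD-labelled library, single cells held 94, 86 and 42. Without the highest cell of each library the log2 ratios in RPM-like cells were 2.33 for Cxcl9 and 3.24 for Cxcl10. With the UMIs of a gene capped at 5 per cell, an alternative chosen after seeing the data, they were 1.82 for Cxcl9 and 2.28 for Cxcl10. After thinning, 0.887% (0.622 to 1.23%) and 2.38% (1.66 to 3.29%) of the RPM-like cells had a Cxcl9 UMI, and 0.272% and 0% of the erythroid-like cells did, where 0 of these cells allows a share of up to 2.31% of cells with a UMI at that reduced depth.

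The chemokine levels also rested on single cells in several clusters outside the RPM-like cells. The cluster led by Mmp14 and Pf4 had the highest Cxcl9 level of the 18 clusters in the SCD-labelled library. It met the marker rule for RPM-like cells but was left unnamed, since other markers led it. Its leading genes also included Stab1 and Dab2, and the DC genes Xcr1 and Itgae, so its markers were mixed. Scrublet, which scores cells that look like 2 cells in 1 droplet, marked 65.6% of its cells in the SCD-labelled library. In the wild-type-labelled library its threshold marked 0 cells, and 16.7% of the cluster was among the 10% of cells with the highest scores, so these shares are not comparable. The part of such cells in its level was not tested. Its Cxcl9 was at 23.6 and 102 CPM, with 35 of 114 and 79 of 168 UMIs in 1 cell each, and at 16.4 and 54.3 CPM without those cells. In the cluster led by Lyz1 and Cd209a, Cxcl9 was at 64.2 and 55.7 CPM (log2 ratio −0.21, −0.47 to 0.06), but 96 of the 156 UMIs of the wild-type-labelled library came from 1 cell. Without the highest cells this cluster held 24.7 and 46.4 CPM, and the log2 ratio was 0.91 (0.51 to 1.32), so the direction of Cxcl9 there turned on 1 cell. Cxcl10 in the same cluster was at 14 and 29.1 CPM (1.06, 0.54 to 1.62), in 8 and 102 cells. In the cluster led by Fn1 and Vcan, Cxcl9 was at 2.78 and 33.8 CPM with 106 of 193 UMIs of the SCD-labelled library in 1 cell, and Cxcl10 was at 8.93 and 36.3 CPM (2.02, 1.61 to 2.46) in 25 and 60 cells. Mature DC-like cells held less Cxcl10 in the SCD-labelled library, at 17.9 and 4.29 CPM (−2.06, −3.14 to −1.07) on 34 and 12 UMIs. Their Cxcl9 was at 25.2 and 16.1 CPM (−0.65, −1.27 to −0.03) on 48 and 45 UMIs, and without the highest cells its interval held 0 (−1.40 to 0.11).

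Within RPM-like cells 8 of the 9 genes with at least 100 UMIs were at least 2-fold higher in the SCD-labelled library, all but Gbp7, beside 9.16% of 9980 genes. Cxcl10, with 78 and 378 UMIs, passed the minimum through the SCD-labelled library, and with at least 100 UMIs in each library 7 of 8 genes were at least 2-fold higher, beside 7.71%. Their median log2 ratio was 1.35, beside 0.20 over all genes. Different clusters held these cells in the libraries: 3717 of the 4746 in the wild-type-labelled library lay in a cluster led by Cdkn1c and Gpnmb, and 1554 of the 1618 in the SCD-labelled library in a cluster led by Rgs1 and Adamdec1. Other transcripts moved with the difference. Of the 10 markers of red pulp macrophages 5 were higher in the SCD-labelled library, and the marker Cd5l was at 3114 and 554 CPM. The 8 B lymphocyte markers summed to 107 and 212 CPM, with 7 of 8 higher. RPM-like cells held Hbb-bs at 8.46 and 772 CPM, the 12 erythroid markers summed to 578 and 123 CPM, the 7 markers of Ly6c-low monocytes to 844 and 1768 CPM with 7 of 7 higher, and the 6 of mature DCs to 11.2 and 62.0 CPM with 6 of 6 higher. Their part in the result was not tested. The 7 NK cell markers summed to 1.18 and 1.07 CPM and the 7 T lymphocyte markers to 4.61 and 3.62 CPM, low in both libraries.

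In Ly6c-low monocyte-like cells, 438 and 1073 in number, 6 of the 7 genes measured were at least 2-fold higher, all but Gbp7, beside 2.62% of the genes tested. Of the 7, only Irf1 had 100 UMIs in the smaller wild-type-labelled group, where 0.845% of the genes with 100 UMIs in each library were at least 2-fold higher, so the count over the 7 is a description of genes that passed through the SCD-labelled library. Their median log2 ratio was 1.39, beside 0.09 over all genes. The cluster led by Fn1 and Vcan, with 1023 and 906 cells, had 7 of 9 at least 2-fold higher, beside 2.34%, with a median of 1.11 beside 0.03. Cxcl9 and Cxcl10 passed the minimum there through the SCD-labelled library, Cxcl9 with 19 and 193 UMIs and with 7 and 87 without the highest cells. Of the 7 genes with 100 UMIs in each library 5 were at least 2-fold higher, beside 1.69%. In both monocyte groups Gbp2 had the largest log2 ratio of the GTPases among the genes followed. Markers moved in these groups too. In the cluster led by Fn1 and Vcan the 6 markers of Ly6c-high monocytes summed to 8054 and 5846 CPM, with 1 of 6 higher. The 7 of Ly6c-low monocytes summed to 657 and 1464 CPM, with 7 of 7 higher. In Ly6c-low monocyte-like cells the 8 B lymphocyte markers summed to 259 and 553 CPM, with 8 of 8 higher. The part of these shifts was not tested. Mature DC-like cells, 436 and 649 in number, had 0 of 6 at least 2-fold higher, beside 2.11%, and 1 of 6, Gbp7, at least 2-fold lower, beside 5.26%. The median of the 6 was 0.58, beside 0.0037 over all genes, and 5 of 6 were above 0. Gbp7 rested on 64 and 39 UMIs there. Only 3 of the 6, Gbp2, Gbp5 and Irf1, had 100 UMIs in each library. None of these 3 was at least 2-fold higher, beside 1.28%, and their median was 0.86. The main B lymphocyte-like cluster, with 540 and 1725 cells, had 0 of 7 at least 2-fold higher, beside 1.12%, and a median of 0.41 beside 0.07, with none of the 7 at 100 UMIs in the wild-type-labelled library. Whether the groups differ from each other in these ratios was not tested.

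**Figure D3:**
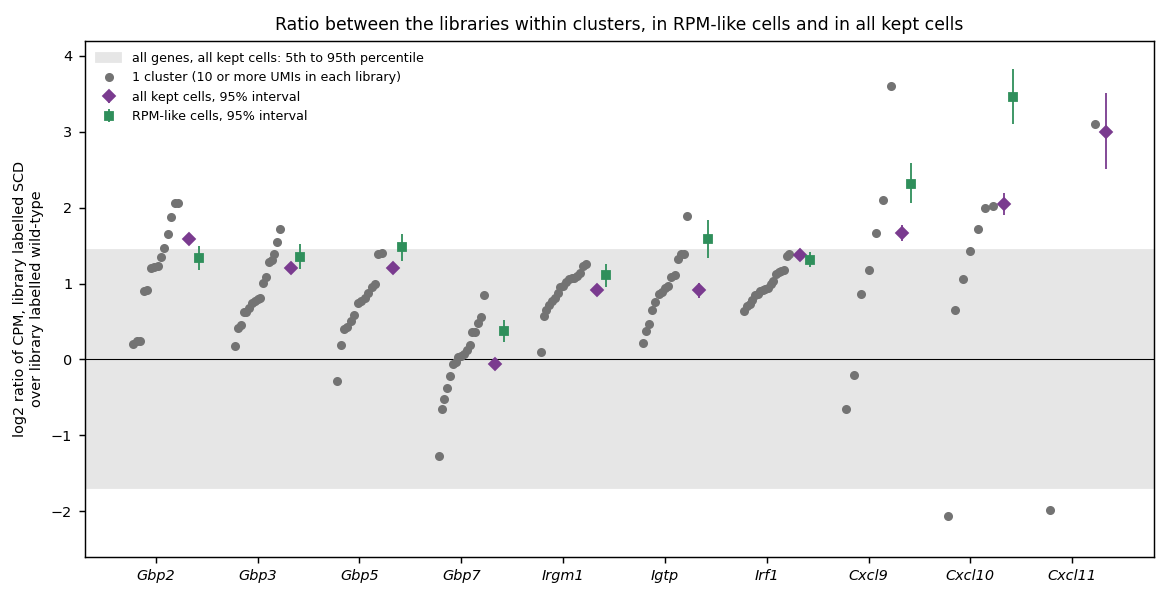
Log2 ratio of CPM, SCD-labelled library over wild-type-labelled library, for each of the 10 genes: grey points are clusters with at least 50 cells and 10 UMIs of the gene in each library, diamonds all kept cells and squares RPM-like cells, with 95% intervals for counting error. The grey band runs from the 5th to the 95th percentile of all genes in all kept cells. Gbp2, Gbp3, Irgm1, Igtp and Irf1 lie above 0 in every cluster shown, and Gbp7 lies on both sides of 0 with a median of 0.04.

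The order of the cell types was partly shared by the genes. Over the 18 clusters, log2(CPM + 1) of Gbp2 correlated with that of Gbp5 at a Pearson r of 0.91 in the wild-type-labelled library and 0.78 in the SCD-labelled library, with Irf1 at 0.72 and 0.82, and with Irgm1 at 0.03 and 0.31. Irgm1 followed Igtp instead, at 0.77 and 0.59. The correlations describe 18 clusters that share their library and differ in depth. Gbp2, Gbp3 and Gbp5 were each highest in a monocyte or DC cluster in both libraries. Erythroid-like cells held 785 and 106 UMIs of Irgm1 and 250 and 31 of Igtp, beside 131 and 21 of Gbp3. Lymphoid cells gave no such contrast. The main B lymphocyte-like cluster held 66 and 357 UMIs of Gbp3, 47 and 257 of Gbp5 and 37 and 173 of Gbp2, beside 54 and 428 of Irgm1 and 22 and 116 of Igtp. Among 11707 genes, the 5 with the profile most like Gbp2, by the lower r of the libraries, were Arhgap31, Fas, Atp2b1, Zswim6 and Kif1b. For Irf1 they were H2-D1 and B2m, both of MHC class I, and Klf6, Ncoa3 and Plek. For Irgm1 they were Dync1li2, BC005537, Chmp3, Anxa7 and Cmpk2, and for Cxcl9 Calhm6, Art2a, Dcxr, Dnaaf3 and Tspan31, at lower r (0.62 to 0.65).

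The ligand itself was nearly undetected. Ifng had 2 UMIs in each library, both of those of the SCD-labelled library in the main B lymphocyte-like cluster, and the T lymphocyte-like cluster, whose leading genes also included the eosinophil genes Prg2 and Epx, held 60 and 92 cells. Cxcr3, the receptor of the chemokines, was at 2.39 and 1.26 CPM, on 257 and 82 UMIs. The receptor chains were present throughout, Ifngr1 at 274 and 563 CPM (log2 ratio 1.04) and Ifngr2 at 77.9 and 137 CPM (0.81). Jak1 was at 271 and 293 CPM (0.11) and Jak2 at 93.1 and 164 CPM (0.82).

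Among 12 genes of interferon-gamma signalling, 11 had at least 100 UMIs and 5 were at least 2-fold higher over all kept cells: Ifngr1, Nlrc5 (1.91), Socs3 (1.68), Ciita (1.61) and Socs1 (1.54). Over all genes tested the share was 12%. Ciita and Nlrc5 drive the MHC class II and class I genes, and Socs1 and Socs3 are feedback inhibitors. In RPM-like cells 2 of 9 measured were at least 2-fold higher, beside 9.16% of all genes: Ciita, at 8.75 and 79.5 CPM (3.18), and Nlrc5 (2.24). Ifngr1 had a log2 ratio of 0.91 there. B lymphocyte-like cells made up 3.35% and 16.7% of the kept cells, and their part in the ratios over all kept cells was not tested. Irf8, a myeloid transcription factor, was at 412 and 399 CPM (−0.05). Of the other interferon-inducible GTPases 5 of 8 measured were at least 2-fold higher over all kept cells, beside 12% of all genes. These were Gbp4 (2.62), Tgtp2 (1.90), Gbp9 (1.53), Iigp1 (1.37) and Ifi47 (1.14). In RPM-like cells 5 of 6 were, beside 9.16%, and Iigp1 was at 49.3 and 284 CPM (2.53). Gbp4, with 42 and 150 UMIs there, passed the minimum through the SCD-labelled library. Gbp8, the Gbp gene with the most UMIs, was at 104 and 103 CPM (−0.02), next to Gbp7 without a difference. Counts for Tgtp2 are uncertain, since Tgtp1 is a near-identical copy.

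Of 12 effector genes of interferon-gamma, 6 of 10 measured were at least 2-fold higher over all kept cells, beside 12% of all genes: Serpina3g (1.82), a serine protease inhibitor, Ly6a (1.72), the costimulatory receptor Cd40 (1.61), Cd274 (1.0), which encodes PD-L1, and Tap1 (1.49) and Psmb9 (1.29), which supply peptides to MHC class I. In RPM-like cells 4 of 9 measured were at least 2-fold higher, beside 9.16% of all genes, and Cd40 had a log2 ratio of 0.58. Nos2, the inducible nitric oxide synthase, had 1 and 0 UMIs over all kept cells. Fcgr1 was at 49.4 and 36.6 CPM over all kept cells (−0.43). The genes known best from type I interferon were divided. Mx1 (1.25), Mx2 (1.22), Rtp4 (1.20) and Irf7 (1.18) were at least 2-fold higher over all kept cells, beside 12% of all genes, and Isg15 (−2.38) and Rsad2 (−2.23) were at least 2-fold lower, beside 9.78%, out of 15. Both were highest in cells that took a smaller share of the SCD-labelled library: EBI-like cells held Rsad2 at 2295 and 2893 CPM and Isg15 at 407 and 388 CPM, so fewer such cells and less RNA per cell cannot be told apart in the sums. In RPM-like cells 4 of 13 were at least 2-fold higher, beside 9.16% of all genes. Of these 4, Irf7 alone had at least 100 UMIs in each library, and Mx2 had 38 and 72. At least 2-fold lower were 2 of 13, beside 4.34%: Isg15 at 26.8 and 12.7 CPM, on 453 and 95 UMIs, and Rsad2 at 126 and 48.9 CPM. Erythroid markers moved with them in these cells, at 578 and 123 CPM in sum, and their part was not tested. The median log2 ratio in RPM-like cells was 0.56 for the type I genes, 0.66 for interferon-gamma signalling, 0.58 for the effectors and 1.33 for the other GTPases, beside 1.35 for the 9 genes followed above that were measured there.

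**Figure D4:**
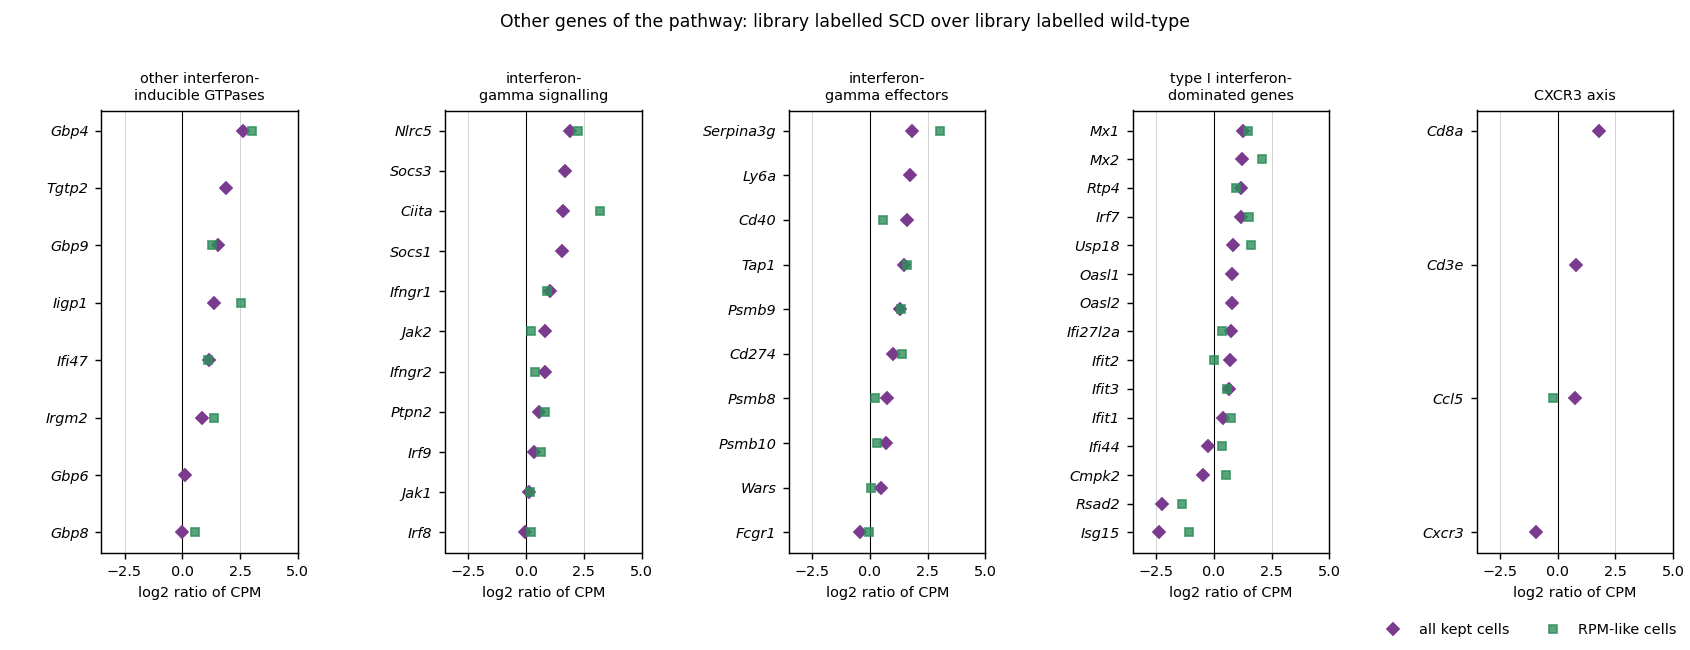
Log2 ratio of CPM, SCD-labelled library over wild-type-labelled library, for genes of 5 lists with at least 100 UMIs, in all kept cells (diamonds) and in RPM-like cells (squares, shown where they had at least 100 UMIs). Most genes of the GTPase, signalling and effector lists lie right of 0, and among the type I genes Isg15 and Rsad2 lie left of 0 at −2.38 and −2.23.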

How the data were processed

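Spleen cells bound by F4/80 beads were measured in 2 droplet libraries (1 mouse each). The authors aligned the reads to GRCm38.p6, per the submitters' processing notes, and deposited matrices of raw UMI counts, which they had not normalized. The notes name Cell Ranger 4.0.0 and the matrix headers 3.1.0. Cells were kept at 500 to 5000 genes, less than 15% mitochondrial UMIs and less than 30% of ribosomal-protein genes, normalized with scran 1.30.0 (R 4.3.3) and clustered (Leiden, resolution 1, 30 principal components, 15 neighbours, 2000 variable genes) with scanpy 1.11.5, python-igraph 0.11.9 and Python 3.11.15. The 10 genes, the other interferon genes, and hemoglobin, sex-linked and 7 heme genes were left out of clustering. Clusters were named from marker lists. Doublets were scored with Scrublet and left in. Its threshold marked 0 cells of the wild-type-labelled library, where the highest 10% were taken instead, and 1712 of the SCD-labelled library. UMIs were summed per group and library as CPM, with exact Poisson, binomial or conditional binomial intervals (95%). Genes with at least 100 UMIs over both libraries were compared. For shares of cells, each cell was thinned to 1000 UMIs, which left out 1032 and 281 shallower cells.

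The genes named were the 10 members of the list, pathway genes that encode the ligand, receptors, kinases or transcription factors or lay past 2-fold, and the 5 genes most like Gbp2, Irgm1, Irf1 and Cxcl9. Gbp8, Fcgr1, Nos2, Prg2, Epx, Xcr1, Itgae, Cd5l and leading genes of clusters were named after their values were seen. A further gene of the signalling list was left out of the lists and of the likeness of profiles and is not reported here. The genes and lists were chosen with earlier results of these data known. Ratios and intervals were tested on simulated data. Alternatives for filters, doublets, size factors, resolution, variable genes, joint clustering, library total, cell weight and thinning were run.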

Additional observations from a re-analysis of the deposited data

Results flagged for a closer look

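A few genes were lower in the SCD-labelled library in 1 cluster and higher in another. Gbp7 had a log2 ratio of −1.27 in mature DC-like cells, on 64 and 39 UMIs, and 0.85 in Ly6c-low monocyte-like cells. Cxcl9 had −0.65 in mature DC-like cells, with an interval that held 0 without the highest cells (−1.40 to 0.11), and 3.61 in the cluster led by Fn1 and Vcan, where 106 of 193 UMIs of the SCD-labelled library came from 1 cell. Cxcl10 had −2.06 in mature DC-like cells, on 34 and 12 UMIs, and 2.02 in the cluster led by Fn1 and Vcan. Cxcl11 had −1.99 in the cluster led by Lyz1 and Cd209a, where all 14 UMIs of the wild-type-labelled library came from 1 cell, and 3.1 in the cluster led by Cxcl11 and Hbb-bs, where 110 of 119 UMIs of the SCD-labelled library did. These differences were not tested, since each condition had 1 library.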

How the results depend on the processing

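Each log2 ratio recomputed over all kept cells or RPM-like cells kept its direction under every alternative run, except that Gbp7 over all kept cells changed sign with cells thinned to 500 UMIs (0.0014). Of the 201 values of single genes under alternatives that could change them, 200 kept the sign of the reported value and 32 moved past its counting interval. The median log2 ratio of the 10 genes over all kept cells was 1.21 with cells thinned to 1000 UMIs, 1.07 at 500 and 1.21 with at least 100 UMIs in each library, chosen after seeing the data. In RPM-like cells the median was 1.21 with the libraries clustered separately and 1.11 with cells thinned to 500 UMIs. The log2 ratio of Cxcl9 was 1.42 with each cell weighted equally, 1.21 and 1.45 with cells thinned to 1000 and 500 UMIs, and 1.34 with UMIs capped at 5 per cell, an alternative chosen after seeing the data. Single genes that moved by over 1.5 times were Cxcl10 in RPM-like cells, at 2.28 with the cap, Cxcl11 over all kept cells, at 2.30 with the cap and 2.24 with equal weights, and, in RPM-like cells, Cxcl9 at 1.64 with 1000 UMIs and Gbp5 at 0.79 with 500. The share of Cxcl9 UMIs in RPM-like cells, in the wild-type-labelled and SCD-labelled libraries, was 21.9% and 24.6% with at least 200 genes per cell and 19.2% and 22.5% without doublets. In the wild-type-labelled library it was 22.2% without limits on mitochondrial and ribosomal-protein UMIs, 20.3% with library-size factors, 19.5% at resolution 0.5 and 19.4% with the cap. In the SCD-labelled library it was 20.5% at resolution 2, 21.8% with all variable genes and 29.3% with the libraries clustered separately. No paired analysis was possible because each condition had 1 library. Depth limits Cxcl11 most, with 42 and 203 UMIs over all kept cells.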
